A study of Homo sapiens with 6 samples.

Results

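The 34 genes described here encode effectors and regulators of the interferon response, measured in HuCCT-1, an established line grown from a human bile duct cancer. They were taken as a list of symbols and matched to Ensembl identifiers, and each of the 34 matched 1 of the 60605 genes in the count table. Cells received 6 nM JNJ-64619178, which inhibits the arginine methyltransferase PRMT5, for 4 days, and control cells received the vehicle DMSO. Both groups were kept in the same serum-containing medium, and mRNA was sequenced from 3 libraries of each. The model is 1 cell line, and the labels do not tell separate cultures from repeat libraries, so every p-value here reflects only the spread between these libraries, which may be technical. In bulk RNA, fewer expressing cells and less RNA per cell cannot be told apart. The comparison asks how PRMT5 inhibition alters these genes.

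Interferons are secreted proteins that alarm neighbouring cells when foreign nucleic acid is sensed. Type I and type III interferons bind their receptors, the kinases JAK1 and TYK2 phosphorylate STAT proteins, and STAT2 joins IRF9 in a complex that binds a DNA element called the ISRE (interferon-stimulated response element). The genes that follow encode proteins that bind viral RNA, trap virions, cut nucleotide supply or attach the ubiquitin-like modifier ISG15, and in epithelial cells many of them are also transcribed at a low level without added interferon.

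Library totals ranged from 23931991 to 30691914 counts. Levels are given in CPM, counts scaled to a common library total with TMM factors, and means as mean ± SD over n = 3 libraries. Changes are log2 fold changes of inhibitor over DMSO with their standard error (SE), and adjusted p-values come from edgeR's quasi-likelihood test with Benjamini-Hochberg adjustment over all genes tested. Of 10 markers of biliary epithelium 9 passed the filter on low counts, with summed levels of 5660 to 5938 CPM with DMSO and 4587 to 4853 CPM with the inhibitor, and the keratins KRT7, KRT19, KRT8 and KRT18 were called lower. Leukocyte markers summed to 3.42 to 4.21 CPM with DMSO and 5.55 to 6.09 CPM with the inhibitor over 14 genes, with CD2, MS4A1, NKG7 and CLEC4C at 0 counts in every library. Fibroblast and endothelial markers (10 genes) summed to 1.19 to 1.68 and 1.95 to 2.68 CPM. One control library, DMSO replicate 3, stood apart from the other DMSO libraries, over genes in general as well as for the members. Over all genes with enough counts, the chi-square per degree of freedom was 8.09 and 6.90 for it against DMSO replicates 1 and 2. Between DMSO replicates 1 and 2 it was 2.56, and between inhibitor libraries 5.12 to 5.64. DMSO replicate 3 held the lowest DMSO level in 27 of the 33 members tested (81.8%), against 35.7% of all genes tested, and among the 20 members called higher it was the lowest in 18. Values without it are given where a call was lost or an estimate moved by over 1.5 times. Without it the 6 decreases ran from -0.32 to -0.22 in place of -0.28 to -0.16. Its part in the size of the increases was not tested beyond leaving it out.

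Most members were higher after 4 days of inhibitor, by modest amounts, and a minority was lower. Of the 34 members, 20 rose, 6 fell, 7 did not pass the test and 1, HERC5, was below the filter on low counts (edgeR quasi-likelihood test, adjusted p under 0.05). Over all 17371 genes tested 37.1% were called, 20.0% higher and 17.1% lower, so the members' share of increases (60.6% of the 33 tested) lay above the background and their share of decreases (18.2%) lay near it. The median log2 fold change of the tested members was 0.37, against 0.0014 for all genes tested. In 21 of the 33 tested members all 3 inhibitor libraries lay above all 3 DMSO libraries (24.7% of all genes tested) and in 3 they lay below (22.2%). A called increase of at least 1.5-fold was seen in 6 members (5.90% of all genes tested), namely IFI44, TRIM22, RSAD2, GBP2, MX1 and HERC6, and no called decrease reached that size (4.44%). Without DMSO replicate 3 the counts were 16 higher and 6 lower and the median was 0.30, and the calls of IRF9, MX2, ISG20 and EPSTI1 were lost. Without DMSO replicate 1 only 3 members were called lower, IFIT5, BST2 and XAF1. With upper-quartile scaling, under which 40.6% of all calls were higher in place of 53.9% (2800 higher, 4099 lower), the members still stood at 20 higher and 6 lower.

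**Figure D1:**
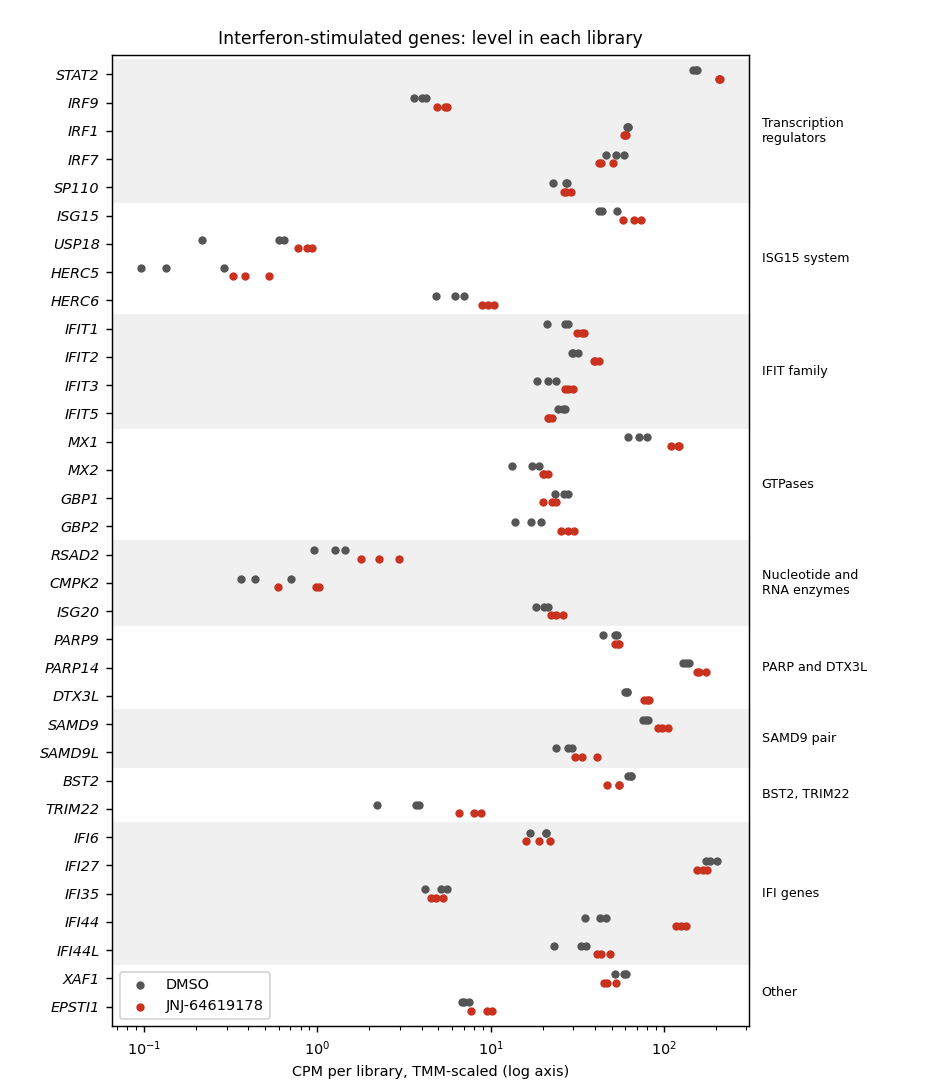
Level of the 34 members in each library, in CPM on a log axis, with 1 point per library (3 DMSO, grey; 3 JNJ-64619178, red) and members grouped by role. The levels run from below 1 CPM in every library for HERC5 and USP18 to above 100 CPM for IFI27, STAT2 and PARP14, and IFI44 shows the widest gap between the groups.

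**Figure D2:**
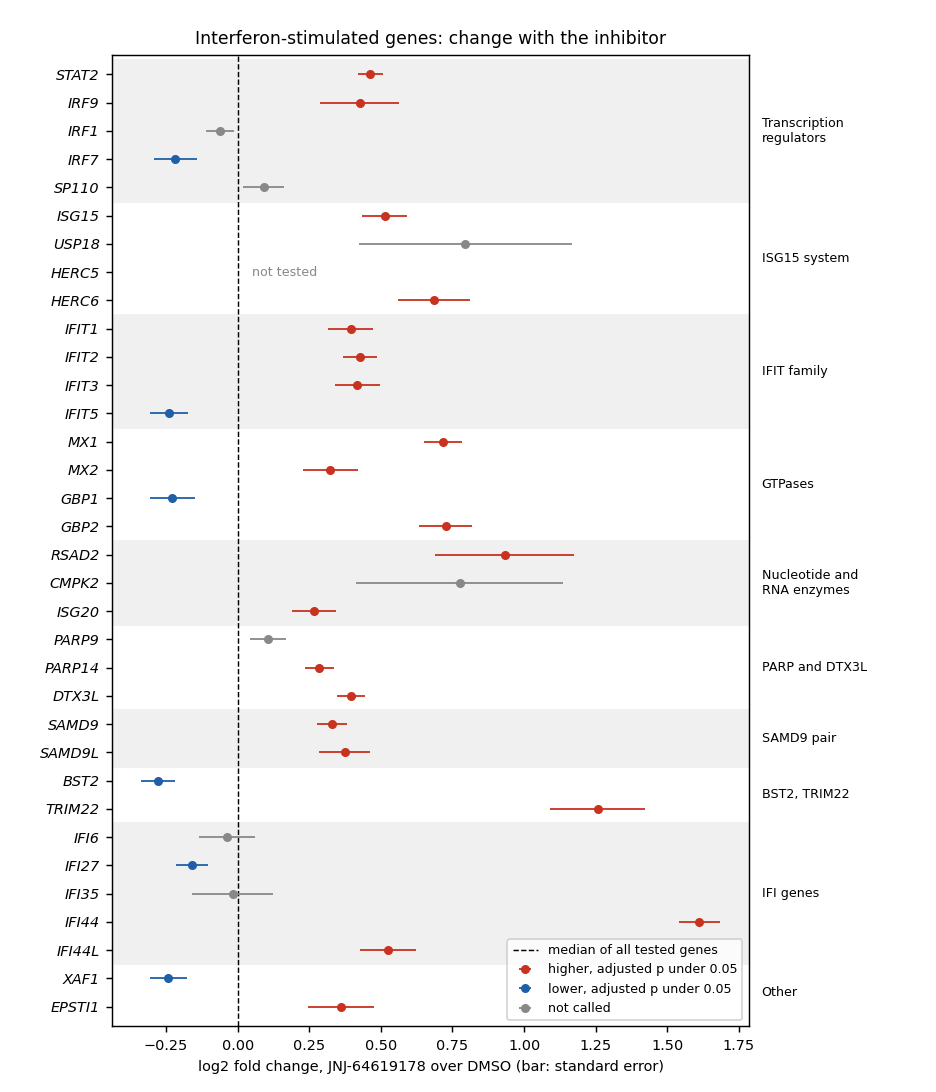
Log2 fold change of each member, inhibitor over DMSO, with bars of 1 standard error from edgeR (3 libraries per group); red and blue points passed an adjusted p under 0.05. IFI44 stands at 1.61 and TRIM22 at 1.26, while the 6 decreases lie between -0.28 and -0.16.

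The promoters of these genes were read because the members moved in both directions. RefSeq windows (250 bases before to 50 after a start, build GRCh38.p14) were held for 28 of the 34 members, 9 of them with more than 1 start. IRF7, USP18, IFIT2, MX2, GBP2 and TRIM22 were not matched. The core letters of the ISRE, GAAA followed by any 2 bases and GAAA again, were searched on both strands, and matches may overlap. At least 1 match was present in 19 of the 28 members (67.9%), against 4.38% of the 27305 genes of the table. By outcome, the letters were in 12 of 16 members that rose, 4 of 5 that fell, 2 of 6 that did not pass and the untested HERC5, so they were present on both sides. The core of the STAT element GAS, TTCNNNGAA, was in 9 of the 28 (32.1%) and in 9.38% of all genes. A match is a description of letters and not of binding. The 5 stretches below run from 200 bases before to 10 after the RefSeq start on the gene's own strand, 5′ to 3′, with ISRE letters in capitals. They show the strongest increase (IFI44, chr1:78649589-78649798, plus strand), 2 IFIT genes that moved in opposite directions (IFIT1, chr10:89392423-89392632, and IFIT5, chr10:89414368-89414577, both plus), the largest decrease (BST2, chr19:17405621-17405830, minus strand) and a start region shared by 2 genes that run apart (DTX3L, chr3:122564138-122564347, plus).
IFI44: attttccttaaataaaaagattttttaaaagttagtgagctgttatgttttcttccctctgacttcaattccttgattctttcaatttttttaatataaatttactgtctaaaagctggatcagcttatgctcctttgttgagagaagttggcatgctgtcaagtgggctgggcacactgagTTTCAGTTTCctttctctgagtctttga
IFIT1: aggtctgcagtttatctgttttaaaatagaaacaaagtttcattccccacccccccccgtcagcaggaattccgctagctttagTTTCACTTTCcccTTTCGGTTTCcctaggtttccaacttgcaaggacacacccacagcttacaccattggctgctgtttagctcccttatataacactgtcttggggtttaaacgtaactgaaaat
IFIT5: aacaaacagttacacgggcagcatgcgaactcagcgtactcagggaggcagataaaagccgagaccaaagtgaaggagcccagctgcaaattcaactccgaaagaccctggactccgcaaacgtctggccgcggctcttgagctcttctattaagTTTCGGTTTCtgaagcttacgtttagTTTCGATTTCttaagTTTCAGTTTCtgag
BST2: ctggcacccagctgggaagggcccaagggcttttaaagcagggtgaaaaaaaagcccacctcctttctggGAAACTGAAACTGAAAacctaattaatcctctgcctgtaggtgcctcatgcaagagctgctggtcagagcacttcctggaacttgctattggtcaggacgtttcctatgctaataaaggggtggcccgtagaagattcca
DTX3L: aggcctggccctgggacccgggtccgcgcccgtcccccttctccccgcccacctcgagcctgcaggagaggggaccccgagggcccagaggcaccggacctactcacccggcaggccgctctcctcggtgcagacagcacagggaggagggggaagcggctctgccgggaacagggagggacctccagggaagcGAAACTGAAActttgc
IFIT5, which fell, carried 3 matches, the farthest starting at position -45, and IFIT1, which rose, carried 2. BST2 carried 2 overlapping matches. The match in DTX3L, at chr3:122564332-122564341, is the same 10 bases that lie in a window of PARP9 on the other strand.

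Of the 5 transcription regulators 2 rose, 1 fell and 2 did not pass. STAT2, which gives the complex its activation domain, stood at 156, 153 and 147 CPM in the DMSO libraries and 208, 209 and 211 CPM with the inhibitor, a log2 fold change of 0.46 (SE 0.04, adjusted p = 8.41e-09). The inhibitor libraries were all higher and nearly alike. IRF9, the DNA-binding subunit of the same complex, went from 3.96 ± 0.334 to 5.32 ± 0.350 CPM (log2 fold change 0.43, SE 0.14, adjusted p = 0.018). This gene is scarce, its call was lost without DMSO replicate 3 (adjusted p = 0.0833), JNJ replicate 1 (0.0614) or JNJ replicate 3 (0.0512), and 48.4% of its annotated exonic bases lie also in another annotated gene on the same strand, so its count is uncertain. IRF7, a factor that amplifies interferon production, fell slightly, from 59.3, 52.9 and 46.3 to 42.0, 50.8 and 43.1 CPM, and the groups overlapped. Its log2 fold change was -0.22 (SE 0.08, adjusted p = 0.0259), and the call was lost without DMSO replicate 1 or 2 or JNJ replicate 1 or 3 (adjusted p 0.216, 0.0617, 0.112 and 0.114). IRF1, which can drive many of these genes without STAT2, did not pass the test at 62.1 ± 0.407 and 59.5 ± 0.920 CPM (adjusted p = 0.349). Its antisense neighbour IRF1-AS1 shares 22.0% of its exonic bases, and no source used here states the strand setting of the counting. The nuclear body protein gene SP110 did not pass either, at 26.0 ± 2.55 and 27.6 ± 1.29 CPM (0.09, adjusted p = 0.351), with an estimate of -0.0011 without DMSO replicate 3 and 0.05 without JNJ replicate 1.

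Of the 4 genes of the ISG15 system 2 rose, 1 did not pass and 1 was not tested. ISG15, a ubiquitin-like protein that is joined to other proteins and also secreted, stood at 53.8, 44.0 and 42.5 CPM with DMSO and 58.4, 74.1 and 67.5 CPM with the inhibitor. All inhibitor libraries were above all DMSO libraries, and the log2 fold change was 0.51 (SE 0.08, adjusted p = 1.18e-05). HERC6, a member of the HERC ligase family, rose from 6.27, 7.03 and 4.85 to 9.72, 8.96 and 10.5 CPM, a log2 fold change of 0.69 (SE 0.13, adjusted p = 0.000117), and the groups did not overlap. HERC5, the main human ligase for ISG15, had only 15 counts over the DMSO libraries and 32 over the inhibitor libraries, 0.134, 0.290 and 0.0964 against 0.325, 0.525 and 0.381 CPM, and was not tested. Leaving out 1 library let it pass the filter in 4 of the 6 such fits, and it was called higher in the 1 without DMSO replicate 2. USP18, the protease that removes ISG15 and dampens the type I receptor, stood at 0.603, 0.217 and 0.642 CPM with DMSO and 0.773, 0.875 and 0.932 CPM with the inhibitor. Its groups did not overlap, but the estimate (0.79, SE 0.37) did not pass (adjusted p = 0.0987) and was 0.45 without DMSO replicate 2. Near-identical copies of USP18 elsewhere in the genome could share its reads.

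Of the 4 IFIT genes, 3 rose and 1 fell. IFIT proteins bind viral RNA and block its translation, and the genes lie in 1 cluster on chromosome 10. IFIT1 stood at 28.0, 27.0 and 21.3 CPM with DMSO and 31.7, 33.7 and 34.7 with the inhibitor, a log2 fold change of 0.39 (SE 0.08, adjusted p = 0.000332). IFIT2 rose from 30.4 ± 1.24 to 40.9 ± 1.48 CPM (0.43, SE 0.06) and IFIT3, which stabilises IFIT1, from 21.3 ± 2.71 to 28.3 ± 1.61 CPM (0.42, SE 0.08). The 3 increases lay between 0.39 and 0.43. IFIT5, which binds RNA without joining that complex, stood at 26.9, 24.6 and 26.3 CPM with DMSO and 22.8, 21.8 and 21.4 CPM with the inhibitor, all inhibitor libraries below all DMSO libraries. Its log2 fold change was -0.24 (SE 0.07, adjusted p = 0.00603), and it remained called lower in all 13 refits. Without DMSO replicate 3 IFIT1 stood at 0.27, IFIT3 at 0.31 and IFIT5 at -0.24.

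Among the interferon-induced GTPases, 3 rose and 1 fell. MX1, which blocks influenza and other viruses in the cytoplasm, rose from 79.9, 72.4 and 61.9 to 122, 120.0 and 109.5 CPM, with a log2 fold change of 0.72 (SE 0.07, adjusted p = 5.17e-09). Its neighbour MX2, which acts at the nuclear pore, rose from 16.6 ± 2.92 to 20.7 ± 0.818 CPM (0.32, SE 0.09), and without DMSO replicate 3 it did not pass (0.17, adjusted p = 0.112). The guanylate-binding proteins attack the membranes that shelter intracellular microbes. GBP2 stood at 13.9, 17.1 and 19.7 CPM with DMSO and 30.3, 25.6 and 28.1 CPM with the inhibitor, an increase of 0.73 (SE 0.09, adjusted p = 1.06e-06). GBP1, beside it on chromosome 1, stood at 26.6, 28.1 and 23.4 CPM with DMSO and 22.7, 20.1 and 24.0 CPM with the inhibitor. Its groups overlapped, and the decrease of 0.23 on the log2 scale (adjusted p = 0.0239) was lost without DMSO replicate 1 or 2 or JNJ replicate 2 (adjusted p 0.0717, 0.137 and 0.138).

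The nucleotide and RNA enzymes were scarce apart from ISG20. RSAD2 (viperin), which makes a chain-terminating nucleotide, rose from 1.27, 1.45 and 0.964 to 1.79, 2.27 and 2.97 CPM. The groups did not overlap, with a log2 fold change of 0.93 (SE 0.24, adjusted p = 0.00363), or 0.77 without DMSO replicate 3. CMPK2, the mitochondrial nucleotide kinase encoded beside it on the other strand, stood at 0.501 ± 0.181 and 0.863 ± 0.235 CPM with overlapping groups, and its estimate of 0.78 (SE 0.36) did not pass (adjusted p = 0.0979). At these depths 3 counts in a library correspond to 0.0964 to 0.127 CPM, so CMPK2 and USP18 rest on few reads. ISG20, an exonuclease for single-stranded RNA, rose by a small amount, from 20.1 ± 1.58 to 24.1 ± 1.97 CPM (0.27, SE 0.08, adjusted p = 0.00802), and did not pass without DMSO replicate 3 (0.0787) or JNJ replicate 2 (0.0552).

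PARP14, PARP9 and DTX3L add or transfer ADP-ribose and ubiquitin, and their genes lie together on chromosome 3. PARP14, a mono-ADP-ribosyltransferase, rose from 134 ± 5.12 to 164 ± 10.9 CPM, with a log2 fold change of 0.29 (SE 0.05, adjusted p = 7.57e-05). DTX3L, a ubiquitin ligase that works as a heterodimer with PARP9, stood at 61.6, 61.2 and 59.5 CPM with DMSO and 82.2, 77.0 and 80.4 CPM with the inhibitor, with no overlap (0.39, SE 0.05, adjusted p = 6.27e-07). PARP9 itself stood at 53.8, 52.5 and 44.4 CPM with DMSO and 55.4, 54.1 and 52.5 CPM with the inhibitor, with overlap, and did not pass (0.11, SE 0.06, adjusted p = 0.189), with an estimate of 0.01 without DMSO replicate 3. SAMD9 and SAMD9L, adjacent genes on chromosome 7 whose products restrict poxviruses and slow growth, both rose, SAMD9 from 78.7 ± 2.59 to 98.8 ± 6.94 CPM (0.33, SE 0.05, adjusted p = 2.27e-05) and SAMD9L from 27.2 ± 3.03 to 35.2 ± 5.61 CPM (0.37, SE 0.09, adjusted p = 0.00171). SAMD9L was not called by DESeq2 (adjusted p = 0.0652), and without JNJ replicate 1 it stood at 0.24.

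TRIM22 and BST2, both restriction factors, moved in opposite directions. TRIM22, a ubiquitin ligase that represses viral transcription, stood at 3.89, 3.73 and 2.22 CPM with DMSO and 8.78, 7.98 and 6.61 CPM with the inhibitor. This 2.39-fold increase (log2 fold change 1.26, SE 0.17, adjusted p = 1.73e-06) was the second largest of the members called, and it was 1.02 on the log2 scale without DMSO replicate 3. BST2 (tetherin), which holds budding virions at the cell surface, fell from 65.1, 64.4 and 62.1 to 47.0, 55.5 and 55.4 CPM. All inhibitor libraries were below all DMSO libraries (-0.28, SE 0.06, adjusted p = 0.000562), and it too remained called in all 13 refits.

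Of the 5 genes named IFI 2 rose, 1 fell and 2 did not pass. IFI44, a cytoplasmic protein of the interferon response, stood at 46.2, 42.6 and 34.9 CPM with DMSO and 135, 126 and 117 CPM with the inhibitor. Its 3.06-fold increase (log2 fold change 1.61, SE 0.07, adjusted p = 2.07e-14) was exceeded by 80 of the 17371 genes tested, and it was 1.49 on the log2 scale without DMSO replicate 3. The adjacent paralogue IFI44L rose from 35.8, 33.4 and 23.4 to 48.7, 43.3 and 40.9 CPM (0.52, SE 0.10, adjusted p = 0.000151), or 0.35 without DMSO replicate 3. IFI27, a small mitochondrial and nuclear membrane protein, had the highest mean DMSO level of the members in CPM and fell slightly, from 203, 184 and 175 to 157, 179 and 168 CPM, with overlap. That decrease (-0.16, SE 0.05, adjusted p = 0.0238) was lost without DMSO replicate 1 or JNJ replicate 1 or 3 (adjusted p 0.186, 0.121 and 0.0662). IFI6, a related mitochondrial membrane protein, did not pass at 19.6 ± 2.28 and 19.0 ± 2.99 CPM (-0.04, SE 0.10, adjusted p = 0.802), nor did IFI35 at 4.98 ± 0.708 and 4.90 ± 0.404 CPM (-0.02, SE 0.14, adjusted p = 0.938). Both estimates were -0.14 without DMSO replicate 3, and both were above 0 without DMSO replicate 1. Of the remaining effectors, XAF1, an antagonist of the apoptosis inhibitor XIAP, stood at 59.0, 60.3 and 52.3 CPM with DMSO and 53.1, 45.2 and 46.9 CPM with the inhibitor, with 1 inhibitor library inside the DMSO range (-0.24, SE 0.06, adjusted p = 0.00397). The non-coding gene PRAL shares 38.3% of its exonic bases on the other strand, at 1.16 and 0.446 CPM. EPSTI1, epithelial stromal interaction protein, rose from 7.12 ± 0.368 to 9.13 ± 1.30 CPM (0.36, SE 0.12, adjusted p = 0.0163), and the call was lost without DMSO replicate 2 or 3 or JNJ replicate 1 or 2 (adjusted p 0.056, 0.0672, 0.0915 and 0.0545).

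Per kilobase of annotated exon, the members with the highest DMSO levels were BST2 (57.1 CPM per kb), ISG15 (49.7), IFI27 (45.2), STAT2 (24.9), IFI6 (22.7), IFI44 (20.2) and IRF7 (20.1). Of these 7, 3 rose, 3 fell and 1 did not pass, where 20.0% of all genes tested were called higher and 17.1% lower. The decreases of IFI27 and IRF7 had overlapping groups and were lost in some fits without 1 library. Whether level bears on direction was not tested. Exon lengths were those of all annotated isoforms joined, which understates the level of genes with long unused exons.

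Neighbouring members were set against each other within each library, where the ratio of read counts does not depend on the scaling between libraries. There were 11 pairs of tested members at most 100 kb apart. In 6 of them the inhibitor libraries did not overlap the DMSO libraries, and the same held for 44.7% of the 41041 pairs of tested genes that close together, so the count lay near the background. Each of the 6 had an exact permutation p of 0.1, the smallest that 3 against 3 libraries allow, so no pair could reach 0.05 (two-sided; 0.183 after Benjamini-Hochberg adjustment over the 11). The 6 include 2 that share IFIT5. IFI44 reads numbered 1.29, 1.28 and 1.49 times those of IFI44L with DMSO and 2.76, 2.92 and 2.86 times with the inhibitor. The ratio of GBP1 to GBP2 was 1.92, 1.64 and 1.19 with DMSO and 0.748, 0.784 and 0.855 with the inhibitor. IFIT1 over IFIT5 went from 1.04, 1.10 and 0.81 to 1.39, 1.55 and 1.63. The MX1 to MX2 ratio was 4.22, 4.16 and 4.65 with DMSO and 5.96, 5.57 and 5.49 with the inhibitor. PARP9 over DTX3L went from 0.873, 0.857 and 0.746 to 0.674, 0.703 and 0.653. These genes start beside each other on opposite strands, hold the ISRE letters shown above in common and share 217 exonic bases, or 2.43% of the exons of PARP9 and 3.70% of those of DTX3L. By contrast the ratios among IFIT1, IFIT2 and IFIT3 differed between the groups by -0.02 to 0.01 on the log2 scale, and SAMD9 over SAMD9L by -0.04 (SE 0.10), all with overlapping groups.

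**Figure D3:**
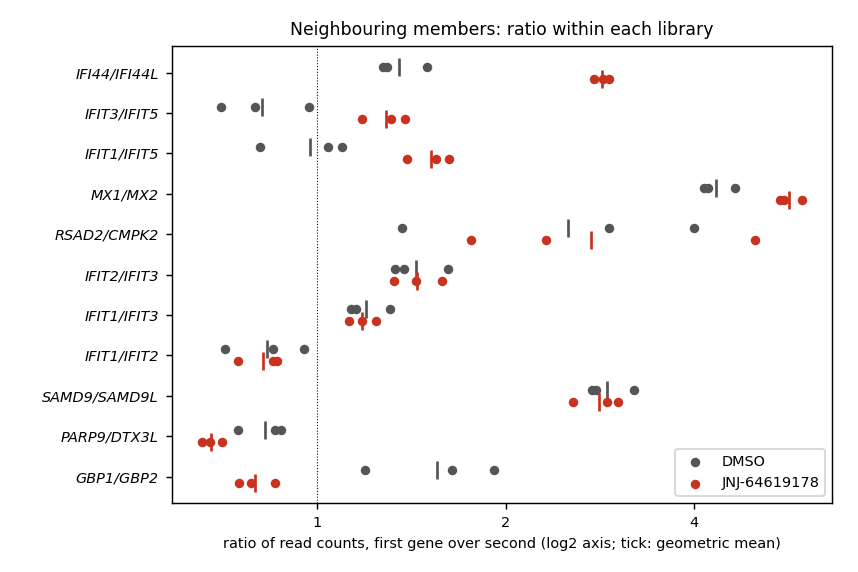
Ratio of read counts between neighbouring members within each library, on a log2 axis, with 1 point per library (3 DMSO, grey; 3 JNJ-64619178, red) and a tick at the geometric mean. The IFI44 to IFI44L ratio moves from between 1.28 and 1.49 to between 2.76 and 2.92, while the 3 pairs among IFIT1, IFIT2 and IFIT3 overlap.

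Upstream of the members, interferon genes themselves were barely counted. Of 22 ligand genes 14, IFNG among them, had 0 counts in all libraries, and 7 had counts below the filter. At 3 counts a library, 0 counts allows up to 0.0964 to 0.127 CPM for reads assigned to 1 gene. How multiply mapped reads were treated is not given, so reads shared between similar interferon genes could be missing. IFNB1 had 13 counts over the DMSO libraries and 10 over the inhibitor libraries, IFNL1 14 and 20, IFNK 13 and 13, and IFNA5 15 and 5. IFNL2 had 6 and 1, IFNL3 6 and 0, and IFNA21 2 and 0. The 1 ligand tested, IFNE, an interferon made constitutively by some epithelia, fell from 10.7, 11.6 and 11.7 to 5.57, 7.07 and 5.64 CPM (log2 fold change -0.89, SE 0.11, adjusted p = 7.89e-07).

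Of 11 receptor and JAK-STAT genes 5 rose (45.5%, against 20.0% of all genes tested) and none was called lower (17.1% of all genes). JAK2, a kinase of the interferon-gamma receptor, rose from 19.4 ± 1.46 to 34.1 ± 3.04 CPM (0.81), and the receptor chains IFNAR2 (0.60) and IFNGR2 (0.58), the kinase TYK2 (0.30) and STAT3 (0.26) rose as well. IFNAR1 (0.01), JAK1 (0.06), IFNGR1 (0.15), IFNLR1 (-0.05) and IL10RB (-0.16) did not pass. Among 16 genes of nucleic acid sensing and IRF3 activation, 4 of the 15 tested rose (26.7%), a share near that of all genes (20.0%), and none was called lower (17.1%). DHX58, a regulator of the RIG-I family, rose from 12.8 ± 1.21 to 26.5 ± 1.54 CPM (1.05), IRF5 by 0.84 and the kinase IKBKE by 0.42. IFIH1 (MDA5) rose by 0.18, and that call was lost in 5 of 13 alternatives, without DMSO replicate 3 among them (0.12, adjusted p = 0.163). Among 12 feedback inhibitors 11 were tested, and 1 rose and 1 fell, SOCS3 (0.13, adjusted p = 0.0418) and IRF2BP2 (-0.19, adjusted p = 0.00173). These shares were 9.09% each way, below the 20.0% higher and 17.1% lower of all genes. The call of SOCS3 was lost in 11 of 13 alternatives (adjusted p 0.051 to 0.27 in those), and IRF2BP1 (-0.20) and PTPN11 (-0.11) did not pass.

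A further 54 interferon-stimulated genes outside the members gave 25 higher and 7 lower over the 53 tested, with a median of 0.17. These shares were 47.2% and 13.2%, against 20.0% and 17.1% of all genes tested. This list, like the members and the other lists, was chosen with earlier results of these data known. Of these 54, OASL, a relative of the oligoadenylate synthetases, rose from 3.59, 3.62 and 3.44 to 9.48, 12.4 and 11.0 CPM (1.63, SE 0.13). The helicase DDX60 (0.90), the ISG15-activating enzyme UBA7 (0.86) and PARP12 (0.67) rose too. A mixed group of 8 of these genes, the IFITM genes of membrane proteins among them, gave 2 higher (25.0%) and 3 lower (37.5%). In every other group of this list more genes were called higher than lower. IFITM1 rose (0.36), while IFITM2 (-0.36) and IFITM3 (-0.14) fell. These IFITM genes are named although the naming rule given below does not include them. Without DMSO replicate 1 the whole list had 4 called lower in place of 7.

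**Figure D4:**
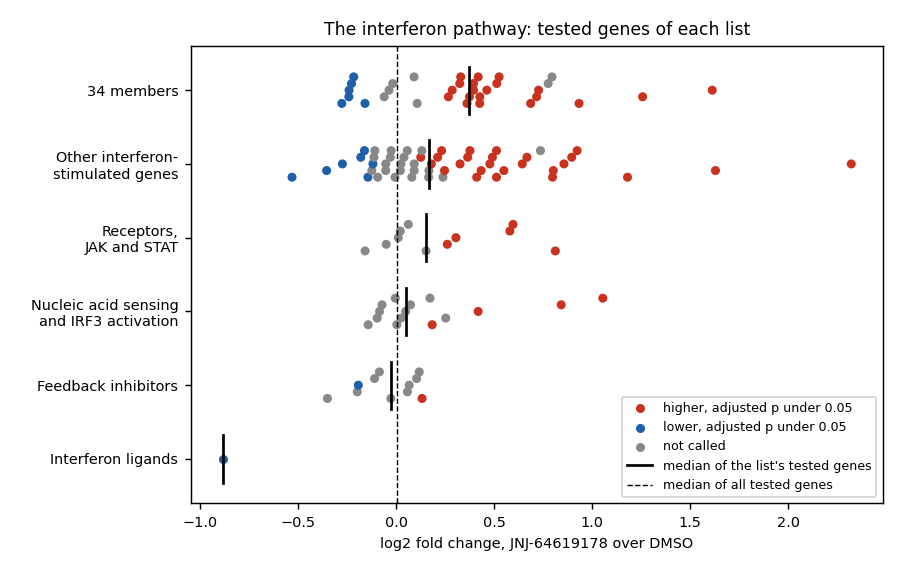
Log2 fold change, inhibitor over DMSO, of every tested gene in the members and in 5 lists of the interferon pathway; 1 point per gene, coloured by edgeR call, with a black bar at the list median and a dashed line at the median of all tested genes. The members' median lies at 0.37, that of the other interferon-stimulated genes at 0.17 and that of the feedback inhibitors at -0.03, and the single ligand tested lies at -0.89.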

How the data were processed

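For the 6 libraries, made with a stranded mRNA kit per the labels' protocols, the authors deposited unnormalized gene counts in 1 table. The tools named in the submitters' processing notes were limma, edgeR, featureCounts 1.6.0, STAR 2.7.9a and FastQC 0.11.8. These notes name a mouse build although the identifiers are human, which leaves the build uncertain. Not given in the sources used here were strand setting, annotation and treatment of multiply mapped reads. Of 60649 lines, 44 repeated identifiers with 0 counts were dropped.

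Counts were filtered (filterByExpr, minimum count 10, minimum total 15), scaled with TMM and fitted with edgeR 4.0.16 (glmQLFit, glmQLFTest; R 4.3.3) over all 17371 genes, with Benjamini-Hochberg adjustment and a threshold of 0.05. The SE was the absolute log2 fold change divided by the square root of F. The code was tested on simulated data. Gene positions and exons came from GENCODE on GRCh38. Neighbour ratios used an exact permutation test. Their background was every such pair of tested genes with a position and a count in every library. All members were named. Of the pathway lists, the 4 genes with the smallest p, every ligand with counts and every tested receptor, kinase and STAT were named, except items not reported here, and marker lists are given as sums. Members, lists and this rule were chosen with earlier results of these data known. Alternatives were DESeq2 1.42.0, limma-voom (limma 3.58.1), other scalings and filters, a replicate block and leaving out each library.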

Additional observations from a re-analysis of the deposited data

How the results depend on the processing

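No called member changed direction in any alternative run. Of the 26 member calls 18 passed in all 13 refits, 8 were lost in at least 1 (EPSTI1, GBP1, IFI27, IRF7, IRF9, ISG20, MX2 and SAMD9L), and the 7 members not called stayed so. The members' median was 0.31 with upper-quartile scaling, under which the median of all genes tested was -0.057 in place of 0.0014. With one library left out at a time, the median ran from 0.30 to 0.41, members called lower from 3 to 6, feedback inhibitors called higher from 0 to 0 and lower from 1 to 2, sensing genes called lower from 0 to 1, and other interferon-stimulated genes called lower from 4 to 8. The 1 feedback inhibitor called higher became 0 with DESeq2, RLE size factors, upper-quartile scaling, no filter and the replicate block. Feedback inhibitors called lower became 2 with RLE, 4 with upper-quartile scaling and 2 with the CPM filter, and sensing genes called lower became 2 with upper-quartile scaling. The cause was not tested. At 1.5-fold or more, calls were 1025 higher and 771 lower over all genes, 6 and 0 among members, 2 higher among receptors and transducers, 0 and 0 among feedback inhibitors, 2 higher in sensing, and 10 and 0 among the other interferon-stimulated genes, since that rule keeps fewer genes. Same-numbered libraries did not deviate together (correlations -0.0184, -0.0144 and 0.00193). No label says what a number stands for, so this cannot tell whether the numbers pair the libraries. The replicate block gave 3311 higher and 2821 lower over all genes, and 20 and 6 among members. Depth limits HERC5, USP18 and CMPK2, and library number limits every permutation test to 0.1.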
